A study of Homo sapiens with 45 samples.

Results

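TET1 occupancy under the compound BPK25 was set against TET1 occupancy in DMSO by ChIP-seq in HEK293T cells, a human embryonic kidney line. The unit is a TET1 region, which is a distinct stretch of the genome in the deposited peak list of either treatment. A DMSO region was called kept when it overlapped a BPK25 region by 1 bp or more, and lost when it did not. A BPK25 region that overlapped no DMSO TET1 region was called newly listed. The BPK25 list held 777 regions and the DMSO list 7211, which together are 7988 of the 53743 regions in the 12 peak lists of the series. The labels' protocols give a treatment of 72 h with BPK25 at 30 µM or with DMSO, the solvent. Other arms of the series were treated with 0.5 mM IAA or immunoprecipitated for CTCF, MBD2 or MBD3. Each list was called by the authors on 3 libraries together, so each value comes from 1 pooled list with no replicate error, and no difference between the treatments, the classes of regions or the antibodies was tested. Ranges in brackets after a share are Wilson intervals at the 95% level, and they reflect the number of regions alone. The labels give the cells of each library as HEK293T. The growth protocol also mentions edited derivatives of the line, without saying whether any library came from them.

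TET1 is a dioxygenase that oxidises methylated cytosine in DNA, a step on the way to its removal. CTCF is a zinc finger protein that binds a long DNA motif and marks insulators and the anchors of chromatin loops. MBD2 and MBD3 are alternative subunits of NuRD, a complex that moves nucleosomes and removes acetyl groups from histones.

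Of the 7211 DMSO TET1 regions, 498 were kept under BPK25, which is 6.91% (6.34 to 7.51), and 6713 were lost. Seen from the BPK25 list, 499 of 777 regions lay at a DMSO TET1 region, which is 64.2%, and 278 were newly listed. The same counts gave 1.71% of DMSO regions kept for MBD3, 1.45% for MBD2 and 1.27% for CTCF. From the BPK25 lists of those antibodies, 46.5%, 46.5% and 59.5% of regions lay at a DMSO region of their own antibody. The 498 and 499 regions formed 502 overlapping pairs, and 495 of the DMSO regions had a single BPK25 region. The smallest overlap of a pair was 27 bp, and 1 pair overlapped by less than 50 bp. The newly listed region closest to a DMSO TET1 region lay 309 bp from it, and 6 newly listed regions lay less than 1 kb away. Few regions thus stood near the limit that separates kept from newly listed.

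The BPK25 and DMSO lists differed in their local backgrounds, from which a relative depth was taken. The authors' fold enrichment and −log10 p of a peak together fix a whole number of stacked fragments at its summit, here called the pileup, and the local background against which it was tested. Both were recovered for every peak of the TET1 lists, 803 of 803 under BPK25 and 7515 of 7515 in DMSO. The smallest local background of a list, here called its floor, was 1.16 fragments in the BPK25 TET1 list and 5.68 in the DMSO TET1 list, a ratio of 20.4%. The ratio was 7.92% for MBD3, 49.5% for MBD2 and 5.89% for CTCF. Below, this ratio stands for the depth of a BPK25 list relative to DMSO. It rests on listed peaks alone. Caller settings and depth per library are not known, so whether it measures sequencing depth was not tested. The least −log10 p listed was 4.82 in the BPK25 TET1 list and 4.17 in the DMSO TET1 list. A region whose local background was over 3 times the floor of its list is called one of raised background below. Raised background was found at 148 BPK25 TET1 regions (19.05%) and 891 DMSO TET1 regions (12.4%).

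At kept regions, TET1 pileups under BPK25 were lower than in DMSO, but by less than the ratio of the floors. The median pileup over the 502 pairs was 19 fragments under BPK25 and 62 in DMSO. The BPK25 pileup was a median of 30.6% of the DMSO pileup, with a 10th to 90th percentile of 22.2% to 43.3%. It exceeded 20.4% of the DMSO pileup, the ratio of the floors, in 470 pairs (93.6%). The local background under BPK25 was a median of 17.6% of that in DMSO. Pileup over local background was therefore higher under BPK25, with a median of 7.48 (10th to 90th percentile 4.0 to 12.1) against 3.88 (2.31 to 6.96) in DMSO, and it was higher under BPK25 in 469 pairs (93.4%). A pair exists only where the BPK25 region passed the BPK25 threshold, and the least pileup listed under BPK25 was 8 fragments, so weak DMSO regions could enter only with a high ratio. At the 40 pairs with a DMSO background over 10 times the floor, the median pileups were 320.5 fragments under BPK25 and 1096.5 in DMSO. Their pileups stood over high backgrounds, so some of these pairs were also near the BPK25 threshold, with a least −log10 p of 4.89 and 4 pairs under 6. The pileup ratio there was 29.5% and exceeded the ratio of the floors in 39 of 40 pairs. The background ratio at these 40 pairs was 26.3%, and pileup over background was 1.61 under BPK25 and 1.51 in DMSO. At the 329 pairs without raised background in DMSO, the pileup ratio was 32.6%.

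**Figure D1:**
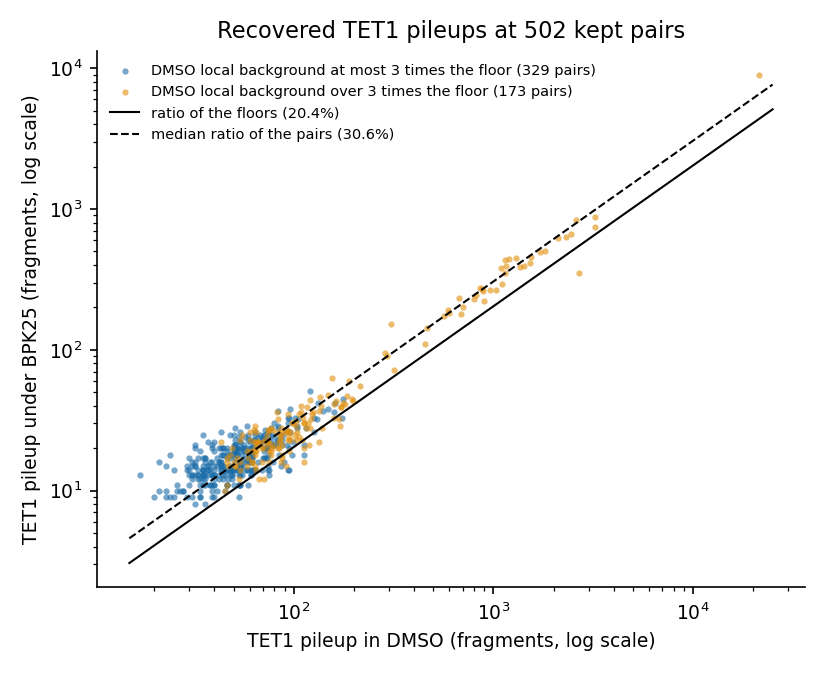
TET1 pileup under BPK25 (vertical axis) against DMSO (horizontal axis) at the 502 kept pairs, in fragments on log scales; each point is 1 pair, coloured by the DMSO local background. The solid line is the ratio of the floors (20.4%) and the dashed line the median ratio of the pairs (30.6%); 470 points lie above the solid line.

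For the other antibodies, pileups at kept pairs also exceeded the ratio of the floors at the median, with 16.2% against 7.92% for MBD3, 56.7% against 49.5% for MBD2 and 13.1% against 5.89% for CTCF. Pairs above the ratio of the floors made up 94.3% for MBD3, 62.9% for MBD2 and 96.9% for CTCF. For MBD2 this came from pairs of very high background. The MBD2 ratio was 48.6% with 58 of 119 pairs above that of the floors where the DMSO background was not raised, and 48.1% with 17 of 39 above at 3 to 10 times the floor. Over 10 times the floor, 74 of 79 MBD2 pairs lay above it. The kept TET1 pairs differed from the others in their background. A DMSO background over 10 times the floor was found at 40 of 502 TET1 pairs, against 120 of 175 MBD3, 79 of 237 MBD2 and 123 of 223 CTCF pairs.

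Kept TET1 regions had high DMSO values. Their DMSO pileup had a median of 62 fragments (10th to 90th percentile 35 to 174), against 38 (24 to 61) at lost regions. The share kept was 1.66% (0.953 to 2.88) in the lowest of 10 equal parts of the DMSO list by −log10 p, 7.91% (6.15 to 10.1) in the part ranked 8 and 27.6% (24.5 to 31.0) in the highest. By quartile of DMSO pileup, weakest first, the shares kept were 1.22%, 3.00%, 4.44% and 18.97%. Quartiles of pileup over local background gave a flatter order, with 5.66%, 5.10%, 5.99% and 10.9%. Of the DMSO regions with raised background 19.4% (17.0 to 22.1) were kept, and of those without it 5.14% (4.62 to 5.71).

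Scaled to the depth of the BPK25 list, most of the DMSO regions that passed its weakest listed value were not listed in it. For the scaling, DMSO pileups and backgrounds were multiplied by the ratio of the floors, and the Poisson −log10 p was computed again. After this scaling 1259 DMSO TET1 regions (17.5%) had a −log10 p of at least 4.82, the least value in the BPK25 list, and 251 of them (19.9%, 17.8 to 22.2) were kept. Scaled instead by 30.6%, the median pileup ratio of the kept pairs, a choice made after seeing the data, 2919 regions (40.5%) passed and 367 of them (12.6%) were kept. With the ratio of the floors, the other 1008 were not listed under BPK25, although the scaled value lay past the weakest listed region. Among the 5952 regions below that value, 247 (4.15%) were kept. The 1008 lost regions past the limit had a median scaled −log10 p of 5.69, against the limit of 4.82. Their median scaled pileup was 12.04 fragments over a scaled background of 2.38. Of these regions, 883 (87.6%) lay at DMSO regions of CTCF, MBD2 and MBD3 alike. A scaled pileup is a value without counting error, whereas a library of that depth would scatter around it.

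The share kept grew with the scaled value. Among TET1 regions without raised background, 1.99% were kept at a scaled −log10 p under 2, 6.0% from 4 to 5, 18.5% (14.1 to 23.8) from 6 to 8, and 37.3% (26.1 to 50.05) from 8 to 10. At 10 or more, 34 of 53 were kept, which is 64.2% (50.7 to 75.7). MBD2, whose lists had the highest ratio of the floors, did not show that order. Of MBD2 regions without raised background, 0.815% were kept from 4 to 5, 0.302% from 8 to 10 and 57 of 4173 (1.37%, 1.06 to 1.77) at 10 or more. MBD3 and CTCF showed the same order as TET1 up to a value of 10. MBD3 regions were kept in 0.565% of cases from 4 to 5, 14.8% (4 of 27) from 6 to 8 and 22.2% (2 of 9) from 8 to 10. CTCF regions were kept in 1.78%, 15.6% (5 of 32) and 36.4% (4 of 11) of cases. At 10 or more, 2 of 7 MBD3 and 1 of 4 CTCF regions were kept. Over all backgrounds, the regions past the limit of their own BPK25 list after scaling were kept in 19.9% (251 of 1259) of cases for TET1. The share was 33.0% (71 of 215, 27.1 to 39.6) for MBD3, 1.39% (181 of 12982, 1.21 to 1.61) for MBD2 and 36.7% (79 of 215, 30.6 to 43.4) for CTCF. TET1 thus lay below MBD3 and CTCF and above MBD2 over all backgrounds. Raised background was found at 139 of those 215 regions for MBD3, 139 of 215 for CTCF and 338 of 1259 for TET1. Without it, the shares were 15.9% (146 of 921, 13.6 to 18.4) for TET1 and 11.8% (9 of 76, 6.36 to 21.0) for MBD3. They were 15.8% (12 of 76, 9.27 to 25.6) for CTCF and 0.730% (84 of 11507) for MBD2. TET1 was then not below MBD3 or CTCF, and the intervals of these 3 overlapped.

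**Figure D2:**
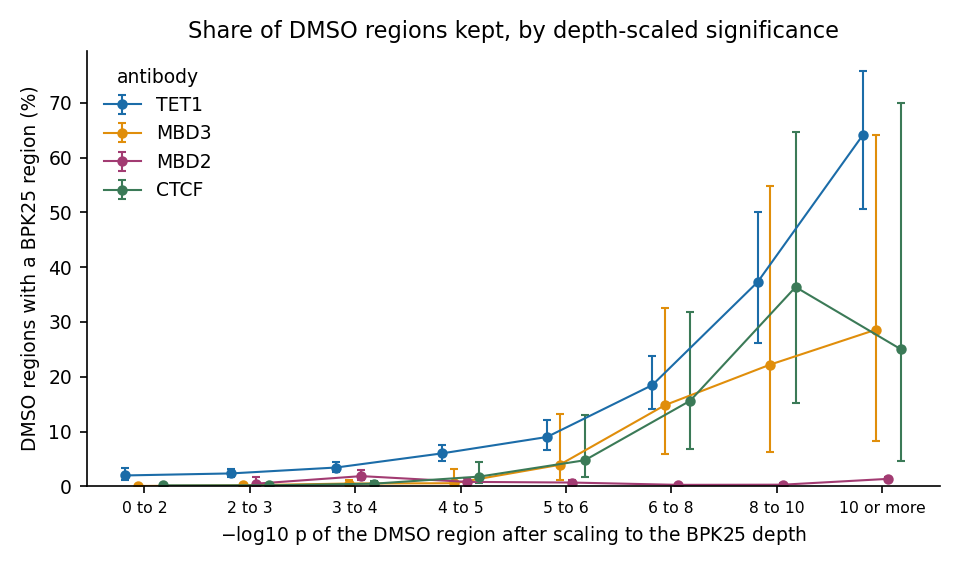
Share of DMSO regions with a BPK25 region of the same antibody (vertical axis, %) by the −log10 p of the DMSO region after scaling to the BPK25 depth (horizontal axis, bins) for regions without raised background. Points are shares and bars 95% Wilson intervals; TET1 climbs to 64.2% in the last bin, MBD3 and CTCF climb to 22.2% and 36.4% from 8 to 10 with few regions, and MBD2, which has none in the first bin, stays at or below 1.86%.

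Kept TET1 regions lay almost throughout at regions that CTCF, MBD2 and MBD3 also had in DMSO. Of the 499 kept regions of the BPK25 list, 97.2% (95.3 to 98.3) overlapped a DMSO CTCF region, 97.8% (96.1 to 98.8) a DMSO MBD2 region and 93.0% (90.4 to 94.9) a DMSO MBD3 region. Newly listed regions did so less often by count, with 68.0% (62.3 to 73.2) for CTCF, 68.3% (62.7 to 73.5) for MBD2 and 49.3% (43.5 to 55.1) for MBD3. Lost regions lay between these classes, with 81.0% for CTCF, 78.1% for MBD2 and 61.3% for MBD3. Regions of all 3 other antibodies were present at 453 kept regions (90.8%), 97 newly listed regions (34.9%) and 3566 lost regions (53.1%). No region of the 3 was present at 3 kept (0.601%), 42 newly listed (15.1%) and 729 lost regions (10.9%).

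**Figure D3:**
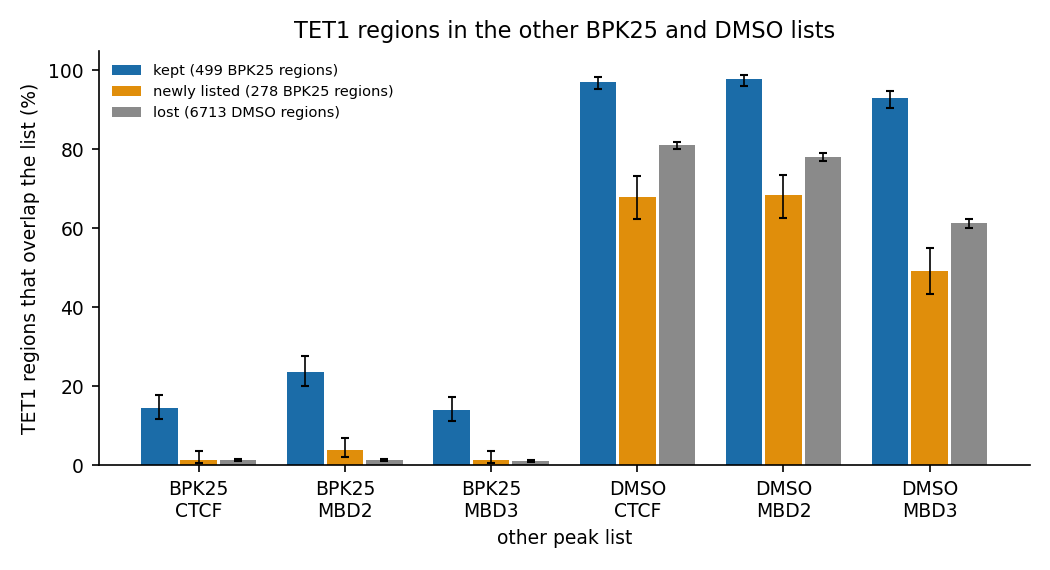
Share of TET1 regions that overlap another peak list (vertical axis, %), for the BPK25 and DMSO lists of CTCF, MBD2 and MBD3 (horizontal axis). Bars are kept, newly listed and lost regions with 95% Wilson intervals; in the DMSO lists kept regions reach 93.0% to 97.8%, and in the BPK25 lists 14.0% to 23.6%.

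The share of DMSO TET1 regions that was kept increased with the number of other proteins at the site. It was 0.410% (3 of 732) with none of the 3 in DMSO, 1.20% (9 of 749) with 1, 2.04% (35 of 1713) with 2 and 11.2% (451 of 4017, 10.3 to 12.2) with all 3. Among the pairings of 2, the shares were 2.17% (4 of 184) with MBD2 and MBD3, 1.68% (5 of 298) with CTCF and MBD3, and 2.11% (26 of 1231) with CTCF and MBD2. CTCF as the only other protein gave 2 of 376, MBD2 5 of 298 and MBD3 2 of 75. The step to all 3 proteins was also found within classes of TET1 pileup. In the lowest quartile of pileup, 14 of 424 regions with all 3 were kept (3.30%, 1.98 to 5.47). With 0, 1 and 2 it was 2 of 569, 3 of 373 and 3 of 437. The intervals with 1 (0.274 to 2.34) and with 2 (0.234 to 2.00) overlapped that with all 3. In the 2 middle quartiles, all 3 gave 4.74% (42 of 886) and 5.63% (66 of 1172), against at most 1.58% (9 of 569) and 2.86% (1 of 35) with fewer. The interval for 1 of 35 (0.506 to 14.5) includes 5.63%. In both of these quartiles the interval with 1 other protein also overlapped that with all 3. In the highest quartile, which spanned 50 to 21261 fragments, 329 of 1535 regions with all 3 were kept (21.4%, 19.5 to 23.6). The counts with fewer were 0 of 16, 2 of 24 and 11 of 228. The interval for 2 of 24 (8.33%, 2.32 to 25.8) includes the share with all 3. Among the 1259 regions past the BPK25 limit after scaling, 21.8% (19.5 to 24.3) with all 3 were kept, while none of 5 with 0, none of 16 with 1 and 5 of 109 with 2 were. Without raised background the share with all 3 was 8.72% (7.81 to 9.73), and with raised background 23.5% (20.5 to 26.8).

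**Figure D4:**
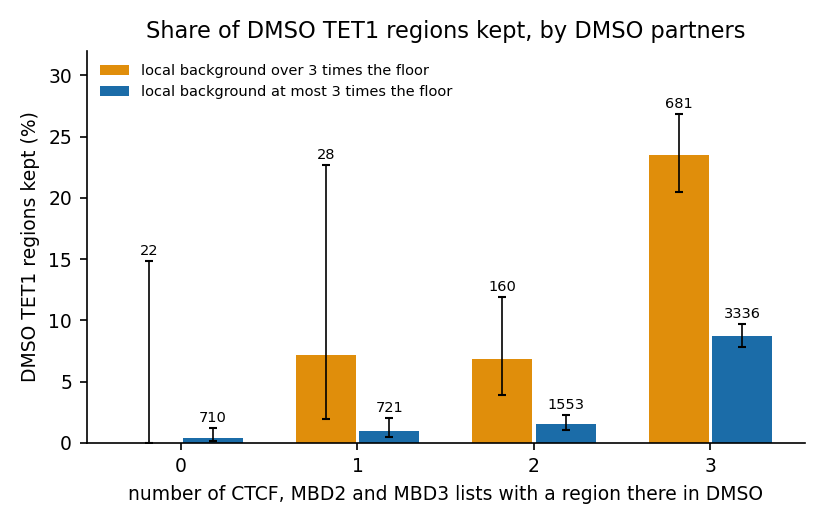
Share of DMSO TET1 regions kept under BPK25 (vertical axis, %) by the number of CTCF, MBD2 and MBD3 lists with a region there in DMSO (horizontal axis), split by local background. Bars carry 95% Wilson intervals and the number of regions above them; in both classes the share is largest with all 3, at 23.5% and 8.72%.

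The other proteins' own DMSO values were also higher at kept TET1 regions by the median, though not at the low end. Each TET1 region took the highest value among the regions of a protein that it met, whereas the whole lists count each region of the protein. DMSO CTCF regions had a median pileup over background of 6.05 where they met a kept region, 4.61 where they met a newly listed one and 5.42 where they met a lost one, with 4.77 over the whole CTCF list. For MBD2 these medians were 6.50, 4.73 and 5.74, with 5.06 over its list, and for MBD3 they were 5.06, 3.99 and 4.59, with 4.18 over its list. The medians thus lay above that of the whole list at kept regions and below it at newly listed ones, for each of the 3 proteins. The 10th percentiles went the other way, with 2.93 at kept and 3.54 at lost regions for CTCF. They were 3.08 and 3.81 for MBD2 and 2.55 and 3.10 for MBD3. Over the whole lists they were 3.12 for CTCF, 3.39 for MBD2 and 2.84 for MBD3.

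Under BPK25, most TET1 regions stood without another listed protein. Of the kept regions, 72 (14.4%) overlapped a BPK25 CTCF region, 118 (23.6%) a BPK25 MBD2 region and 70 (14.0%) a BPK25 MBD3 region, and 145 (29.1%, 25.2 to 33.2) overlapped at least 1 of them. Of the newly listed regions, 4, 11 and 4 did so, 15 (5.40%) in all. Of the lost regions, 174 (2.59%, 2.24 to 3.00) had a region of another protein under BPK25. The overlaps were concentrated where the background was raised. With raised background, 41.1% of kept regions had CTCF, 48.4% MBD2 and 42.7% MBD3 under BPK25, and without it 5.60%, 15.5% and 4.53%. The BPK25 lists of CTCF, MBD2 and MBD3 held 375, 510 and 374 regions at the depths given above. Absence from them and a site without the protein cannot be told apart. A group of 162 BPK25 MBD2 regions was in no DMSO list and recurred in the IAA CTCF list, and 0 BPK25 TET1 regions overlapped it, so the count of 118 was the same without it. Of the kept TET1 regions, 7.21% overlapped the IAA list of TET1, 14.2% that of CTCF, 7.82% that of MBD2 and 6.01% that of MBD3. For kept regions without raised background the IAA lists of TET1, CTCF and MBD3 gave 0.533%, 4.27% and 0.533%, and that of MBD2 0 of 375.

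Summits of kept regions stayed close to their DMSO position. The nearest BPK25 and DMSO summits of a pair were a median of 16.5 bp apart (10th to 90th percentile 3 to 59), and the largest distance was 570 bp. Summits fell on the same base in 8 pairs, within 10 bp in 171, within 25 bp in 339 and within 50 bp in 431 (85.9%). For the pairs of MBD3, MBD2 and CTCF the median distances were 9, 19 and 14 bp. Within the BPK25 list, TET1 summits lay a median of 17 bp from the nearest DMSO CTCF summit at kept regions and 36 bp at newly listed ones, and 83.0% and 56.8% had one within 50 bp. Within the DMSO list, the medians were 11 bp at kept regions and 18 bp at lost ones, with 86.9% and 73.6% within 50 bp. Among DMSO TET1 regions at a CTCF region, 433 of 5376 with the CTCF summit within 50 bp were kept (8.05%, 7.36 to 8.81), and 51 of 546 with it farther away (9.34%, 7.18 to 12.1). The intervals of these shares overlap, while 14 of 1289 regions without CTCF were kept (1.09%).

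Kept regions were wider in DMSO than lost ones and narrower under BPK25 than in DMSO. The median width of kept regions was 235 bp (10th to 90th percentile 202 to 431) in the BPK25 list and 279 bp (206 to 570) in the DMSO list. Newly listed regions had a median of 219 bp (200 to 283) and lost regions 233 bp (200 to 336). The BPK25 region was the narrower of the pair in 365 of 502 pairs (72.7%) and lay wholly inside the DMSO region in 222 (44.2%). Median pileups of these pairs were 19 fragments under BPK25 and 62 in DMSO, and a dependence of width on pileup was not tested. By DMSO width, the share kept was 3.96% up to 200 bp, 3.97% from 201 to 250 bp, 8.01% from 251 to 300 bp, 10.3% from 301 to 400 bp, 21.7% from 401 to 600 bp and 40.9% (45 of 110, 32.2 to 50.3) above 600 bp.

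**Figure D5:**
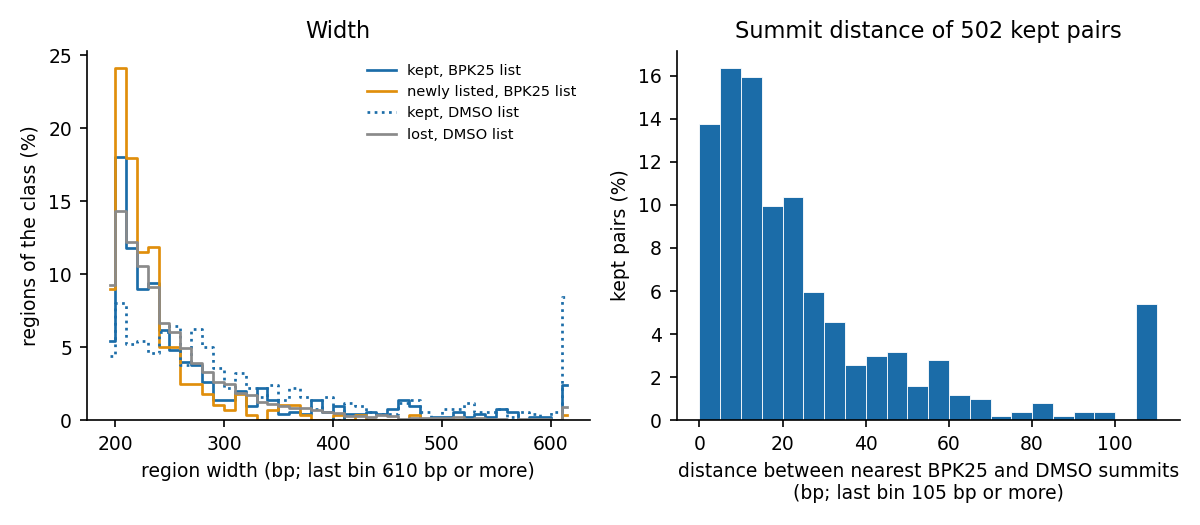
Left, width of TET1 regions (horizontal axis, bp, bins of 10 bp) as the share of each class (vertical axis, %), where the last bin holds all wider regions. Right, distance between the nearest BPK25 and DMSO summits of the 502 kept pairs (horizontal axis, bp, bins of 5 bp) as a share of pairs (vertical axis, %); the median is 16.5 bp.

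Several summits in 1 region were uncommon under BPK25. Of kept regions, 23 (4.61%) had 2 or more summits in the BPK25 list and 61 (12.2%) in the DMSO list, while 2 newly listed regions (0.719%) and 180 lost regions (2.68%) had them. In 428 pairs both regions had a single summit. In 41 pairs the BPK25 region had 1 summit where the DMSO region had 2, and in 9 pairs the BPK25 region had 2 where the DMSO region had 1. Neighbouring summits within a region were a median of 252.5 bp apart at kept regions in the BPK25 list, 286 bp at kept regions in the DMSO list and 248 bp at lost regions. DMSO regions with 2 summits were kept in 52 of 201 cases (25.9%), against 437 of 6970 (6.27%) with 1.

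Kept regions were spread over all chromosomes from 1 to 22 and X. The share of DMSO regions kept was largest on chromosome 17, with 46 of 441 (10.4%, 7.91 to 13.6), followed by chromosome 18 with 9 of 90, chromosome X with 32 of 339 (9.44%) and chromosome 1 with 68 of 763 (8.91%, 7.09 to 11.1). It was smallest on chromosome 3, with 11 of 324 (3.40%, 1.91 to 5.98). Chromosome 3 also had the largest share of newly listed regions among its BPK25 regions, 16 of 26, and chromosome 17 the smallest, 9 of 55. Of 70 DMSO regions outside chromosomes 1 to 22 and X, 18 were kept (25.7%). Of these, 15 lay on the sequences chr9_gl000199_random (7 of 29) and chrUn_gl000226 (8 of 14). DMSO regions with another DMSO TET1 region less than 10 kb away were kept in 135 of 1045 cases (12.9%), against 363 of 6166 (5.89%) for the rest.

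Of 2227 windows of 1 Mb that held a DMSO TET1 region, 376 held a kept one, 70 held 2 or more and 19 held 3 or more. The window with the most kept regions spanned 50 to 51 Mb of chromosome 19, with 7 of 17 kept, and 12 of the 17 had raised background. There were 4 windows with 5 kept regions. From 92 to 93 Mb of chromosome 2, 5 of 21 were kept and 17 had raised background. From 61 to 62 Mb of chromosome X, 5 of 12 were kept and all 12 had raised background. From 145 to 146 Mb of chromosome 1, 5 of 10 were kept and 5 had raised background, and from 56 to 57 Mb of chromosome 17, 5 of 13 were kept and 2 had raised background.

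The 5 kept regions of highest fold under BPK25 show how the pileups compare at single sites (coordinates in hg19; no gene annotation of that build was used here). At chr9:998548-999012 the TET1 pileup was 38 fragments under BPK25 and 96 in DMSO, with authors' folds of 17.7 and 8.78 and summits 21 bp apart. This site was listed for all 4 antibodies in both treatments. In its BPK25 lists the pileup was 11 for CTCF, 31 for MBD2 and 10 for MBD3, against 131, 89 and 116 in DMSO.

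At chr16:60862-61178 the TET1 pileup was 36 fragments under BPK25 and 159 in DMSO, or 22.6%, close to the ratio of the floors. CTCF and MBD2 were also listed there under BPK25, and MBD3 was not. At chr17:19091245-19091890 the TET1 pileup was 144 fragments under BPK25 and 464 in DMSO, over a BPK25 background 8.45 times the floor. Regions of 11 of the 12 lists met there, IAA lists among them. At chr1:148241498-148242047 the TET1 pileup was 42 fragments under BPK25 and 161 in DMSO, and each of the other 3 proteins was listed there in both treatments.

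The remaining region of the 5, chr1:111573152-111573483, differed from the rest of the 5 by its ratio and by its neighbours. Its TET1 pileup was 26 fragments under BPK25 and 43 in DMSO, which is 60.5%, with summits 7 bp apart. Its background was 1.12 times the floor under BPK25. CTCF, MBD2 and MBD3 were listed there in DMSO, with pileups of 59, 50 and 59 fragments, and none of the 3 was listed there under BPK25. That absence was common, since only 145 of the 499 kept regions (29.1%) overlapped another protein under BPK25.

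By DMSO fold, the strongest kept regions were chr15:102519729-102520034, chr16:60817-61211, which is the DMSO region paired with the chromosome 16 site above, and chr17:18965090-18965818. At the chromosome 15 region the TET1 pileup was 33 fragments under BPK25 and 94 in DMSO, with summits 4 bp apart, and no other protein was listed there under BPK25. At chr17:18965090-18965818 it was 45 under BPK25 and 177 in DMSO, and CTCF, MBD2 and MBD3 were all listed in both treatments.

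At the kept sites with the most summits, each BPK25 region was narrower than the DMSO region. The DMSO region over chr7:26226268-26227196 was 2164 bp wide with 5 summits. It overlapped 3 BPK25 regions, of 929, 252 and 566 bp, and the one named here, of 929 bp, had 2 summits. At chr5:180662788-180663402 the BPK25 region was 615 bp wide with 1 summit, against 1814 bp and 4 summits in DMSO. At chr1:236877083-236878072 both regions had 3 summits, with widths of 990 bp under BPK25 and 1232 bp in DMSO, and pileups of 28 and 138 fragments. The region chr1:93324525-93324721, the first in order of position of 4 tied for the least kept width at a −log10 q of 5 or more, was 197 bp wide under BPK25 and 279 bp in DMSO, with summits 1 bp apart.

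Lost regions included sites as strong as the kept ones. The lost region of highest DMSO fold, chr9:11221-11669, had a pileup of 137 fragments in DMSO over a background 1.26 times the floor. Scaled to the BPK25 depth this is 28.0 fragments and a −log10 p of 26.8, far past 4.82, and no protein was listed there under BPK25. The next 4 by fold were chr5:51652189-51652467, chr10:27170963-27171239, chr5:111496339-111496642 and chr13:30046494-30046793. Their DMSO TET1 pileups were 63, 68, 123 and 57 fragments, and their scaled −log10 p was 9.89, 10.3, 16.4 and 8.93. All 5 were listed in DMSO for CTCF, MBD2 and MBD3 and in none of the BPK25 or IAA lists. Strong TET1 signal with all 3 other proteins in DMSO was thus found at kept and at lost sites.

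Newly listed regions were weaker and more isolated than kept ones. Their BPK25 pileup had a median of 13 fragments (10th to 90th percentile 9 to 19), against 19 (12 to 44.2) at kept regions of the BPK25 list. Pileup over local background differed little, with medians of 7.42 for newly listed and 7.48 for kept regions. Raised background was found at 24 of them (8.63%), against 124 of the kept (24.8%). Their summits lay a median of 98.4 kb from the nearest DMSO TET1 summit on the same sequence, with a lowest distance of 489 bp, and 33 (11.9%) lay within 10 kb. The next BPK25 TET1 region was a median of 1143 kb away, against 534 kb for kept regions. Scaled up to the DMSO depth by the ratio of the floors, the 278 newly listed regions had a lowest −log10 p of 18.0 and a median of 34.2. The median for the 499 kept regions was 48.5. No region could fall under 4.17, the least DMSO −log10 p. Each was listed at 4.82 or more, and scaling up raises the value. Such scaling also enlarges the counting error of a low BPK25 pileup.

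The newly listed region of highest fold, chr4:178476223-178476457, had a BPK25 TET1 pileup of 26 fragments and a fold of 11.1. In DMSO it was a region of CTCF, with a pileup of 89, and of MBD3, with 59. The next were chr1:13106578-13106829, chr12:10292683-10292894, chr19:43297660-43297861 and chr1:186451896-186452171, with pileups of 18, 17, 17 and 16 fragments. The last of these is the first in order of position of 2 with that fold. The regions at chr1:13106578-13106829 and chr19:43297660-43297861 were listed in DMSO for CTCF, MBD2 and MBD3. The one on chromosome 12 was listed in DMSO for MBD2 alone, and the one at chr1:186451896-186452171 for CTCF and MBD2. None of the 5 was listed for another protein under BPK25. The narrowest newly listed region, chr3:36582471-36582667, had 14 fragments and all 3 other proteins in DMSO. The widest, chr17:22254697-22255317, had a pileup of 327 fragments at a fold of 1.70 over a background 165 times the floor, and the DMSO pileups of CTCF, MBD2 and MBD3 there were 1116, 624 and 827.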

How the data were processed

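ChIP-seq peak lists of 12 groups were used, each called on replicates 1 to 3 together against control, per the peak names in the deposited files and the labels. The submitters' processing notes name the build hg19 and MACS2 2.1.2, Bowtie2 2.3.4, SAMtools 1.9, FastQC 0.11.7, deepTools 3.5.0 and bedtools 2.25.0. Settings of the caller were not given in the sources used here. Deposited fold enrichment is a ratio, the pileup over the local background on a linear scale, and the deposited −log10 values are of the p-value and q-value. The deposited score is 10 times the −log10 q as a whole number (in 803 of 803 BPK25 and 7513 of 7515 DMSO TET1 peaks), and the deposited summit offset counts bases from the start.

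Peaks with the same start and end made 1 region, which took the values of its peak of largest −log10 p. The fold was read as pileup plus 1 over background plus 1 and the −log10 p as a Poisson upper tail, solved for whole pileups within 0.02% of the −log10 p. More than 1 pileup satisfied this for 3 BPK25 and 13 DMSO TET1 peaks. Depth per library is unknown from peak lists. Scripts were tested on simulated data and run with Python 3.11.15, numpy 2.4.6, pandas 2.3.3, SciPy 1.17.1 and matplotlib 3.10.9.

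The regions, lists, scaling and alternatives were chosen with earlier results of these data known. Regions were named on chromosomes 1 to 22 and X, with a −log10 q of 5 or more in their list. They are the 5 kept, 5 newly listed and 5 lost regions of highest fold in their own list, the 3 kept of highest DMSO fold, the 3 kept with most summits, and the widest and narrowest kept and newly listed. Windows were picked after their counts were seen. Gene lists, gene context and sequence features need an hg19 genome or annotation, which was not used here. Signal tracks and input libraries were not used here.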

Additional observations from a re-analysis of the deposited data

How the results depend on the processing

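The share of DMSO TET1 regions kept was 6.72% on chromosomes 1 to 22 and X, 6.85% with an overlap of 50% of the shorter region and 6.74% with summits within 150 bp. With a −log10 q of 5 or more in both lists it was 5.94%, and 73.3% of BPK25 regions lay at DMSO regions. DMSO CTCF was then at 98.7% of kept, 81.7% of newly listed and 90.7% of lost regions. With a fold of 5 or more, which selects differently in lists of unlike depth, these values were 18.5%, 22.7%, 100%, 87.5% and 96.6%. Without raised background, 4.79% were kept, 48.5% of BPK25 regions lay at DMSO regions, and CTCF was at 74.7% of newly listed and 79.5% of lost regions. Without regions shared by all 4 antibodies in a treatment, 1.47% were kept and 6.44% of BPK25 regions lay at DMSO regions. CTCF was then at 72.3% of kept, 86.8% of newly listed and 59.5% of lost regions, since that step removes DMSO regions with CTCF. With the DMSO list shortened to the BPK25 length by −log10 q, the values were 26%, 26.1%, 100%, 82.1% and 99.1%. That step keeps the DMSO regions of highest −log10 q, not a random part of the list. Summits within 150 bp gave CTCF at 79.6% of lost regions. By value, the order of kept over lost regions for CTCF held under each of these settings. With the shortened DMSO list the intervals overlapped, at 100% (98.1 to 100) and 99.1% (98.0 to 99.6). They also overlapped with a fold of 5 or more. Without the regions of all 4 antibodies they overlapped too, at 72.3% (58.2 to 83.1) and 59.5% (57.8 to 61.2). Newly listed regions stood above kept ones in that last setting, where the cause is that kept sites with all 4 became newly listed. The number of DMSO regions past the BPK25 limit was 1181 with the 5th percentile of the background as the floor and 2919 when scaled by the median pileup ratio of kept pairs, a scaling chosen after seeing the data, with 20.7% and 12.6% of them kept. No paired analysis was possible because the lists pool replicates 1 to 3, and leaving out a replicate was not run for the same reason. Pooled lists give no spread between cultures, and the pileup of a list limits what it can show: no TET1 region under 8 fragments was listed under BPK25.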
